A study of Mus musculus with 2 samples.

Results

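The oxygen-sensing genes of the kidney were examined for open chromatin: Epo, which encodes the hormone erythropoietin, and 8 genes of the hypoxia-inducible factor (HIF) pathway. These 9 genes were chosen by name, out of 21646 protein-coding genes on the autosomes and X, and each was followed over its GENCODE M21 gene body plus 20 kb on each side. The data are DNase-seq of kidney tissue from female B6CASTF1/J mice aged 8 to 10 months, in 2 libraries numbered as biological replicates 1 and 2 of a single group, with no treatment named in the labels. DNase-seq reads the ends that DNase I leaves in accessible DNA, so a peak marks an open stretch and a footprint marks a short protected stretch inside it. B6CASTF1/J is the first-generation cross of C57BL/6J and CAST/EiJ mice, so 1 of the parental chromosome sets differs from the reference and its reads may map less well. The labels give the libraries separate tissue samples but a single donor entry, so the spread between them may be partly technical.

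Cells measure oxygen through the HIF alpha subunits, which are made all the time and, in ample oxygen, destroyed all the time. Prolyl hydroxylases encoded by Egln1, Egln2 and Egln3 use oxygen to mark the alpha subunits, the VHL protein recognises the mark, and the subunit is degraded. When oxygen falls, the alpha subunit escapes, pairs with the beta subunit ARNT and binds hypoxia response elements, whose core reads ACGTG or GCGTG. In the adult kidney, erythropoietin is made by scattered fibroblast-like cells between the tubules, and in mice this depends on the alpha subunit EPAS1. The tubule epithelium makes up most of the tissue.

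The longer of the deposited peak lists held 137083 peaks in replicate 1 and 125000 in replicate 2, with a median signal of 0.744 and 0.800. Overlapping peaks of the libraries were joined into 96746 shared regions, and each took the highest signal of each library. The footprint lists held 316362 and 312966 footprints. The signal is the value per peak as the authors deposited it, and it has no unit given in the sources used here. The signals move in equal steps: in both libraries, 100% of them came out whole when divided by the step, with a tolerance of 0.05. If a step is 1 tag, counting error can be written as an exact Poisson interval, given below where it matters at the 95% level. Such an interval covers counting error only. A promoter was called open where a shared region lay within 500 bases of an annotated protein-coding start. A distal region was a shared region outside every such window.

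By that rule, all 9 genes had an open promoter, against a background of 63.0% of protein-coding genes. The call for Epo rested on a different place from the rest. The start used by its transcripts Epo-201 and Epo-203 had no peak in either library, and the open region belonged to the start of Epo-202, which lies 47426 bases further upstream at the promoter of the neighbouring gene Gnb2. The other 8 genes were open at a start of their own. Taken by rule, with Epo counted at the Gnb2 promoter, the median promoter signal of the 9 genes was 7.67. The median over all 13628 open promoters was 4.77, and 7 of the 9 were above it, Epo among them.

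**Figure D1:**
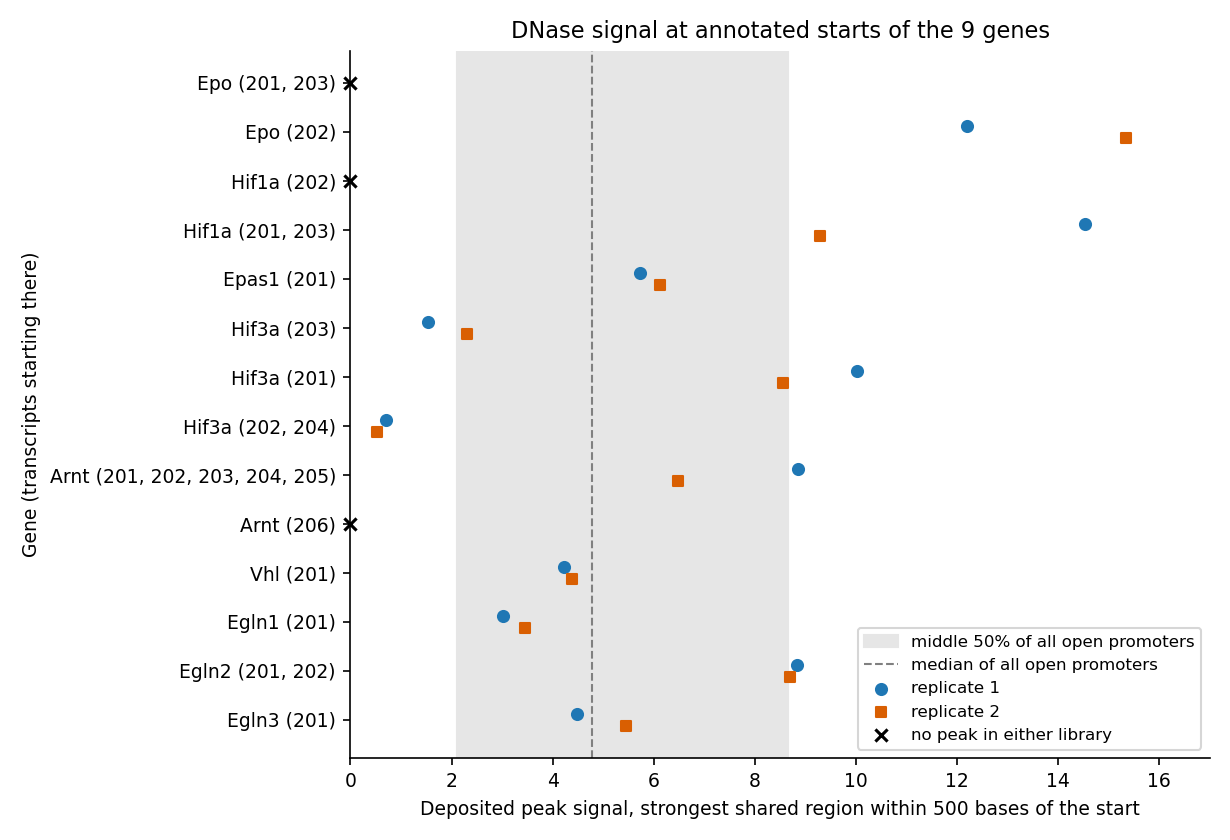
Deposited peak signal of the strongest shared region within 500 bases of each annotated start, with a circle for replicate 1 and a square for replicate 2. The grey band spans the middle 50% of all open promoters (2.11 to 8.66) and the dashed line is their median (4.77). Crosses mark starts with no peak in either library, among them the start of Epo-201 and Epo-203.

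Epo is the output gene of the pathway. Its compact transcript, Epo-201, spans 2797 bases on the minus strand at chr5:137483020-137485816 (mm10). No base of that body, and no base within 500 bases of its start, was listed at a false discovery rate (FDR) up to 0.05 in either library, so 0 listed bases stood there in replicate 1 and 0 in replicate 2. A closed call means that no opening was detectable at this depth. The region near Epo-202, at chr5:137533561-137533760, had a signal of 12.2 in replicate 1 and 15.3 in replicate 2, with a second one of 7.25 and 8.58 beside it. Both lie within 500 bases of a Gnb2 start, and Gnb2 encodes a G-protein beta subunit, so the signal cannot be assigned to Epo.

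Downstream of Epo lies the classic liver-type enhancer, known from mouse and human studies, where a HIF core stands beside a pair of nuclear receptor half-sites. The sequence was found on the minus strand, 886 bases past the annotated end of the gene. It is shown because it is the best-known hypoxia response element and because its state in kidney could be read directly. Capitals mark the core and the half-site pair, which are 19 bases apart.
Epo 3′ flank, chr5:137482078-137482177, minus strand: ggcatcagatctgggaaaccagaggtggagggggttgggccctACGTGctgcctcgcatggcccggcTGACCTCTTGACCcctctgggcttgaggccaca
No peak of either library overlapped it, and 0 bases of it were listed at an FDR up to 0.05 in replicate 1 and 0 in replicate 2. The nearest peak lay 690 bases from the core in both libraries. The half-site pair is rare in sequence: it occurred in 0.0646% of all distal regions and in 0.00924% of the 200-base windows upstream of all genes.

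That nearest peak was itself the strongest distal region in the Epo window, 4.49 kb past the start and beyond the 3′ end.
Epo downstream region, chr5:137481221-137481440, minus strand: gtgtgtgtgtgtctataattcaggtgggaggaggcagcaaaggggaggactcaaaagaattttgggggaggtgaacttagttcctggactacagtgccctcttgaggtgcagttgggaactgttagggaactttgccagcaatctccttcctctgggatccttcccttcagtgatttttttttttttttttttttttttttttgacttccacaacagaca
Its signal was 2.16 in replicate 1 and 4.41 in replicate 2, a mean of 3.28 ± 1.59 (SD, n = 2) that stood above 93.0% of all distal regions. The ratio of replicate 2 to replicate 1 was 2.04. The counting intervals, 1.90 to 2.44 and 4.04 to 4.80, did not overlap, so the libraries differed here by more than counting error. The region held 4 shared footprints and neither form of the HIF core. The annotated protein-coding start nearest to it is that of Zan and not of Epo.

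Upstream of the Epo start, the next shared region lay at −5.97 kb, at chr5:137491653-137491911. Its signal was 0.934 in replicate 1 and 0.609 in replicate 2, near the middle of all distal regions (percentile 41.1), and it held 1 shared footprint and no core. Further upstream the window fills with the promoters of other genes. Pop7, which encodes a subunit of ribonuclease P, had the strongest region of the window, with 21.2 in replicate 1 and 25.7 in replicate 2. At −24.5 kb a region of 1.41 and 2.72 held a core inside a shared footprint, where it forms part of the palindrome CACGTG (E-box) that other factor families also use.
Epo −24.5 kb footprint, chr5:137510400-137510430, minus strand, core in capitals: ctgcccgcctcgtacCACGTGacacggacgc
The region lies within 500 bases of an annotated start of the noncoding gene Gm8066. With the gene bounded by Epo-201 and Epo-203 alone, the window held 4 shared regions, of which 2 were distal and 2 belonged to Pop7, and none lay in the gene body. By the full annotation Epo had 4 distal regions, and 14 in replicate 1 alone.

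Markers of other cells were read in the same way, since bulk tissue cannot separate few cells of a type from weak opening in each cell. Of 8 markers of interstitial fibroblasts and pericytes, 7 were open, with signals of 0.295 to 2.67 and a median of 0.689, and Rgs5 was closed. All 6 proximal tubule markers were open, with signals of 1.17 to 7.07 and a median of 4.21, as were both thick ascending limb markers, with 1.71 and 5.35. Of 4 hepatocyte markers, 2 were open, with signals of 0.373 and 1.93, and Apoa1 and Ttr were closed. Of 4 immune markers none was open (0 of 4). For scale, 63.0% of all protein-coding genes had an open promoter. The median signal of all open promoters was 4.77, above the median of the proximal tubule markers. The part of cell number in the closed state of Epo was not tested.

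Among the HIF alpha subunits, Hif1a had the strongest promoter. Hif1a encodes the alpha subunit found in nearly all cells. At the start of Hif1a-201 and Hif1a-203, the region at chr12:73907701-73908000 had a signal of 14.5 in replicate 1 and 9.28 in replicate 2, a mean of 11.9 ± 3.71 (SD, n = 2) at percentile 87.1 of open promoters. Replicate 1 was the higher, and the counting intervals (13.9 to 15.2 and 8.74 to 9.84) did not overlap. The lowest FDR there was 8.73e-127 in replicate 1 and 2.24e-45 in replicate 2. The alternative start of Hif1a-202, which lies further upstream, had no peak and 0 listed bases in both libraries.
Hif1a upstream, chr12:73907704-73907903, plus strand, cores in capitals: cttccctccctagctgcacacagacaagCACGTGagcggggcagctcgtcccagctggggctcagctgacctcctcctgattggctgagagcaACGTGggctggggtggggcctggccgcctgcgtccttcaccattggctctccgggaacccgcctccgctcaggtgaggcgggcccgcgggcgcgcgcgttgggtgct
These 200 bases end at the base before the start and are shown because the cores lay in shared footprints. One of them is part of a CACGTG palindrome, at −171, and another is a plain ACGTG, at −107. For scale, 37.9% of all genes have ACGTG or GCGTG on either strand in the same window.

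Around Hif1a there were 6 distal regions, 2 of them with a Hif1a start as the nearest, and the strongest, at −2.68 kb, had a signal of 2.46 in replicate 1 and 1.36 in replicate 2. It lies in the intron that follows the alternative start. A region at +41.9 kb, past the 3′ end, had 0.769 and 1.03 and held ACGTG in 2 shared footprints. It lies within 500 bases of an annotated start of the antisense gene Gm15283.

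Epas1 encodes the alpha subunit that is best known from endothelium and from the erythropoietin-producing cells. Its promoter had a region of 5.73 in replicate 1 and 6.12 in replicate 2 at the start (chr17:86753321-86753780), and another of 3.67 and 3.78 just downstream. The libraries differed by less than their counting intervals at the first (5.31 to 6.17 and 5.69 to 6.58). Together these regions held 8 shared footprints.
Epas1 upstream, chr17:86753500-86753699, plus strand, core in capitals: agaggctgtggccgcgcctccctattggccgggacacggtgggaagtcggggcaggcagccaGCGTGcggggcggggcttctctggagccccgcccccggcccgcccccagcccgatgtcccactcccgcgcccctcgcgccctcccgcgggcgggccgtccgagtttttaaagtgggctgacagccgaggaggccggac
A single GCGTG stood at −138 inside a shared footprint, next to a GC box (GGGCGG), which 37.8% of all genes have in this window.

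Most of the open sites of Epas1 lay in its introns. It had 11 distal regions in a body of 79.7 kb plus flanks, 10 of them intronic and 1 in an exon, and for all 11 the nearest annotated protein-coding start was that of Epas1. Genes of like length had a median of 5, which puts Epas1 at percentile 87.8. Most were weak, with a median signal of 0.851. The exception lay at +16.3 kb in an intron, where the signal was 7.42 in replicate 1 and 6.06 in replicate 2, above 98.8% of all distal regions and above the Epas1 promoter itself in replicate 1.
Epas1 intronic region, chr17:86769901-86770160, plus strand: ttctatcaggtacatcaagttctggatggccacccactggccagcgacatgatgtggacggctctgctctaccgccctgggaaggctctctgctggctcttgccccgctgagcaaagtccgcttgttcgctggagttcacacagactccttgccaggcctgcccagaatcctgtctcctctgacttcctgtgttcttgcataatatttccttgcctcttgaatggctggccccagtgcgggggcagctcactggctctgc
It is shown as the strongest intronic region of Epas1. It held 2 shared footprints, and neither ACGTG nor GCGTG was found in it.

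Hif3a encodes an alpha subunit with many splice forms, some of which act against the other alpha subunits. Its main start, that of Hif3a-202, was the weakest of all open starts among the 9 genes, with a signal of 0.703 in replicate 1 and 0.517 in replicate 2 at chr7:17062461-17063245. The strong region lay further into the gene at chr7:17056081-17056340, 339 bases downstream of the start of Hif3a-201, with 10.0 and 8.55. A further region, 418 bases from the start of Hif3a-203, had 1.54 in replicate 1 and 2.30 in replicate 2. So the promoter value of this gene, 9.29 ± 1.04 (SD, n = 2), comes from the region downstream of the Hif3a-201 start, which that region does not cover. With a window of 100 bases the promoter value was 0.610, that of the main start.

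By mean signal, Hif3a also had the strongest distal region of any of the 9 genes. It lay in an intron at +2.22 kb, with a signal of 5.75 in replicate 1 and 10.1 in replicate 2, at percentile 99.2 of distal regions. Replicate 2 was higher by a ratio of 1.75, outside the counting intervals (5.34 to 6.20 and 9.51 to 10.7). In replicate 1 it did not rank first. There the Epas1 region at +16.3 kb had 7.42, and a region at +45.2 kb from the Hif3a start, in the neighbouring gene Ppp5c, had 6.87.
Hif3a intronic region, chr7:17060101-17060320, minus strand, core in capitals: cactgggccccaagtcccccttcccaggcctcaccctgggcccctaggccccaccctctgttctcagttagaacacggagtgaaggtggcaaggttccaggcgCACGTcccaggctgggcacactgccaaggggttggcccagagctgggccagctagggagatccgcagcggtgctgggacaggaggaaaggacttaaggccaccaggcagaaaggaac
The core, written CACGT on this strand, lay inside 1 of 3 shared footprints. Upstream of the gene, at −4.19 kb, was the region that differed most between the libraries, with 1.52 in replicate 1 and 4.02 in replicate 2, a ratio of 2.64.
Hif3a upstream region, chr7:17066521-17066720, minus strand, core in capitals: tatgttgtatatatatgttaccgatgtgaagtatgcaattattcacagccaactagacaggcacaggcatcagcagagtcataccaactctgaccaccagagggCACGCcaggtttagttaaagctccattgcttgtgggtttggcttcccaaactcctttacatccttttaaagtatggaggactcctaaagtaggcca
Its core, CACGC on this strand, overlaps by a base a match to the CTCF consensus, a motif found in 6.81% of all distal regions. Hif3a had 9 distal regions, against a median of 3 for genes of like length (percentile 92.4). Of the 9, 5 were nearest to a Hif3a start; the other 4 lie in the neighbouring gene Ppp5c.

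Arnt encodes the beta subunit ARNT, with which the HIF alpha subunits pair. Its promoter region covered the shared start of Arnt-201 to Arnt-205 at chr3:95434181-95434460, with a signal of 8.85 in replicate 1 and 6.49 in replicate 2. The FDR minimum was nearly the same in both, at 1.36e-117 and 1.34e-114. The separate start of Arnt-206, inside the gene, had no peak and 0 listed bases in either library.
Arnt upstream, chr3:95434188-95434387, plus strand, core in capitals: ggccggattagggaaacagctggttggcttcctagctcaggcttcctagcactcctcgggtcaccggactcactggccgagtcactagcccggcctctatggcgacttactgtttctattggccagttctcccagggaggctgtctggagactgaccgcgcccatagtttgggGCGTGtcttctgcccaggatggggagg
A GCGTG at −29 lay inside a shared footprint. Distal regions were few. Arnt had 2 in a body of 62.9 kb plus flanks, against a median of 5 for genes of like length (percentile 19.4), and their signals in replicates 1 and 2 were 0.339 and 0.384 at −0.850 kb, and 0.422 and 0.642 at +16.3 kb. The count was 4 in replicate 1 alone, 5 in replicate 2 alone and 0 in the shorter list.

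**Figure D2:**
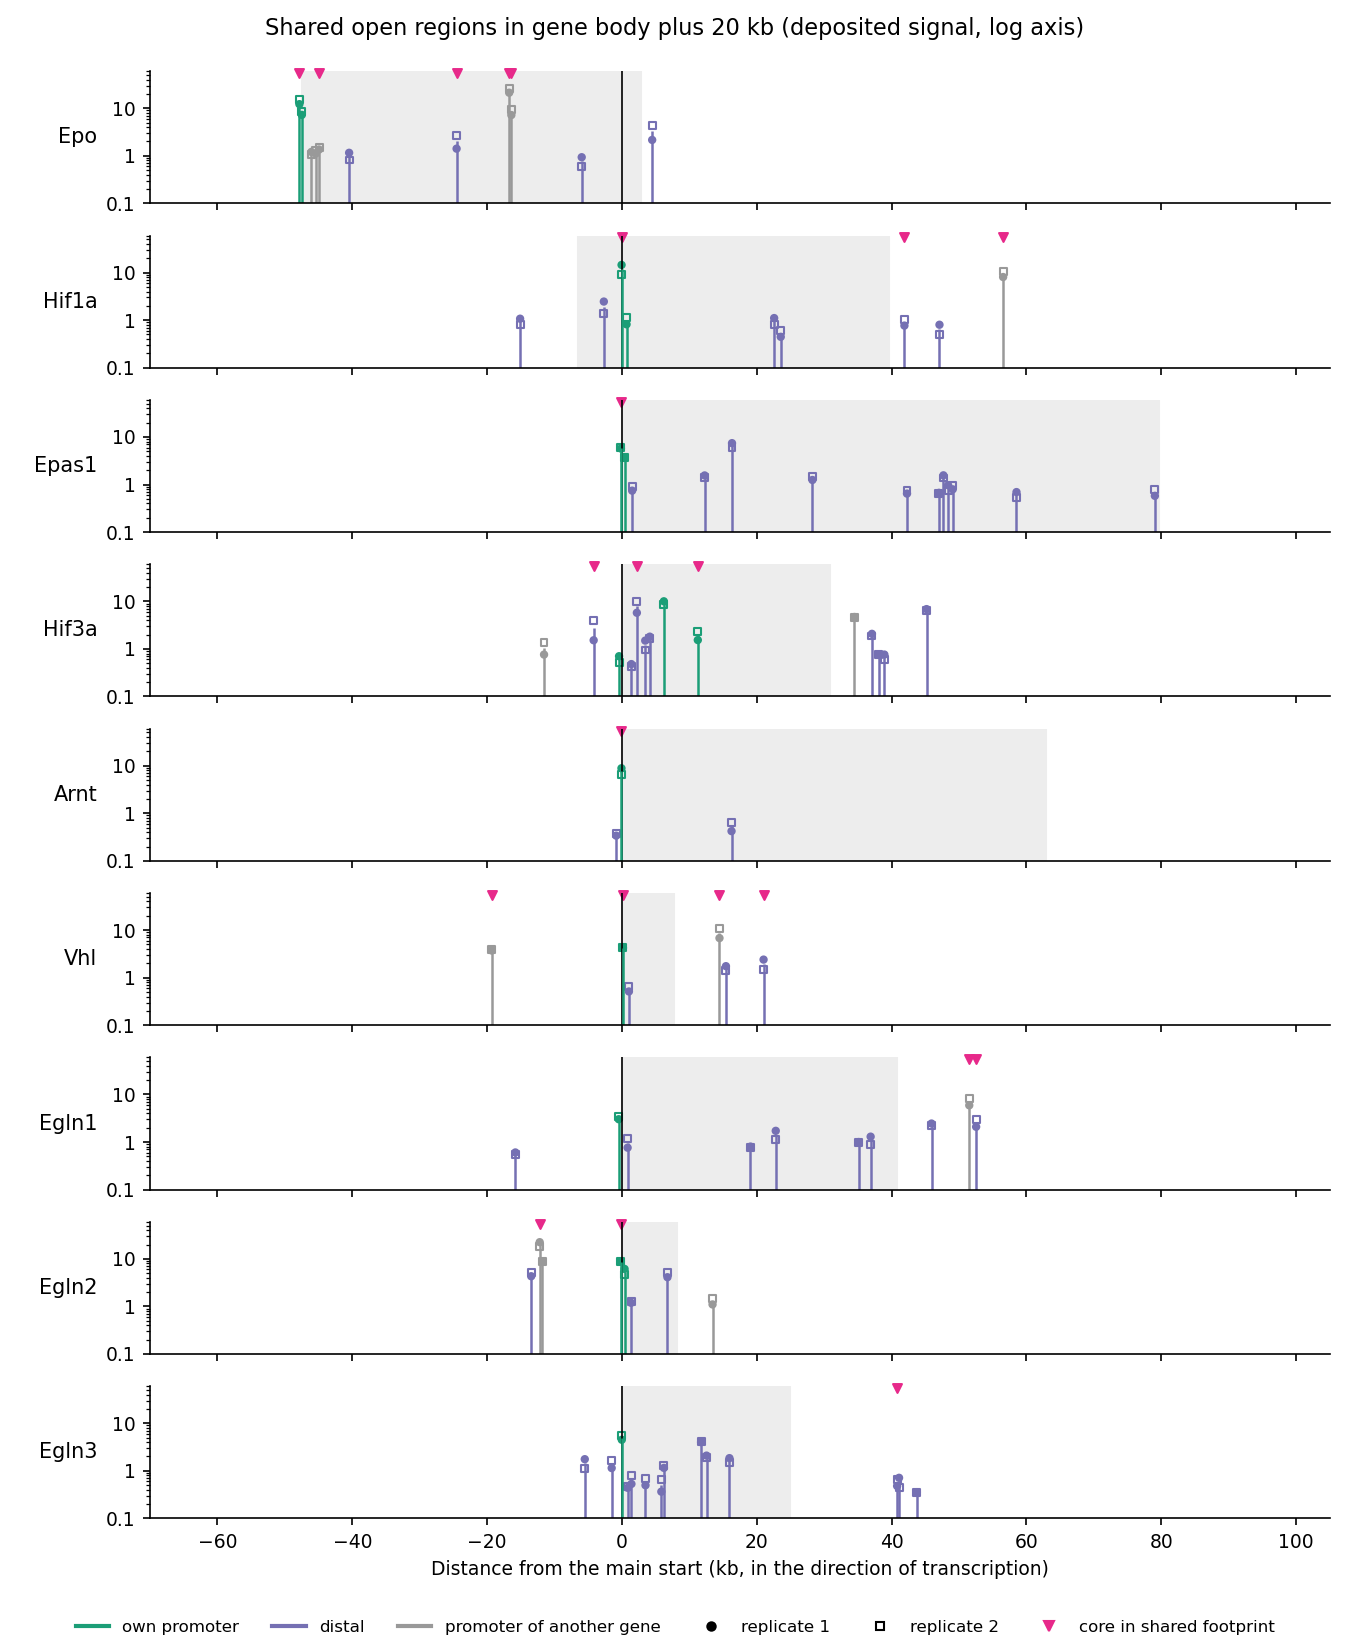
Shared open regions of each gene by distance from its main start in kb, with the deposited signal on a log axis, circles for replicate 1 and squares for replicate 2. Grey shading is the annotated gene body, and triangles mark regions with ACGTG or GCGTG inside a shared footprint. Epas1 and Egln3 show rows of intronic regions, while the long body of Arnt holds 1 distal region, at +16.3 kb.

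Vhl encodes the recognition subunit of the ubiquitin ligase that removes hydroxylated HIF alpha. Its promoter region, chr6:113623981-113624240, began 22 bases downstream of the start, and the libraries agreed closely, with 4.23 in replicate 1 and 4.38 in replicate 2. It held 4 shared footprints, and 1 of these contained both forms of the core, between 125 and 144 bases downstream of the start. The 3 distal regions of the window stood at percentiles 26.7, 74.3 and 81.2 of all distal regions, and 1 of them had a Vhl start as the nearest. The count was at percentile 69.6 of genes of like length, and 5 in replicate 1 alone. The strongest, at +21.01 kb in an intron of the neighbouring gene Irak2, had 2.40 in replicate 1 and 1.51 in replicate 2, and its footprint held a core beside a full cyclic AMP response element (TGACGTCA), found in 0.443% of all distal regions.
Vhl +21.01 kb footprint, chr6:113645004-113645033, plus strand, core in capitals: tagctttggtatgacgtcaCACGTtcctct

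Of the prolyl hydroxylases, Egln1 encodes the main oxygen sensor of most tissues. By the rule, its promoter had the lowest signal of the 9 genes. The shared region stood 357 bases from the start, with a signal of 3.02 in replicate 1 and 3.46 in replicate 2, a mean of 3.24 ± 0.313 (SD, n = 2) at percentile 36.6 of open promoters. Replicate 1 alone had a further peak of 2.21 that reached the start. In replicate 2 no peak was called there, although 573 bases within 500 bases of the start were listed at an FDR up to 0.05, against 603 in replicate 1. With a window of 100 bases Egln1 had no open promoter.
Egln1 promoter region, chr8:124949681-124949920, minus strand: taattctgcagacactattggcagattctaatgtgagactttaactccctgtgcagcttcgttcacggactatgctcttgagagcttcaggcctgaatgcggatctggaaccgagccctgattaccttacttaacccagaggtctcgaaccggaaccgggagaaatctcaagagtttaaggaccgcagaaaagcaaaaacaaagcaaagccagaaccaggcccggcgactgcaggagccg
These 240 bases, the shared region itself, carried 2 shared footprints and no core. The 200 bases directly before the start, the kind of window printed for 5 of the other genes, lie outside that shared region and under the peak of replicate 1 alone, and they held 1 core.
Egln1 upstream, chr8:124949325-124949524, minus strand, core in capitals: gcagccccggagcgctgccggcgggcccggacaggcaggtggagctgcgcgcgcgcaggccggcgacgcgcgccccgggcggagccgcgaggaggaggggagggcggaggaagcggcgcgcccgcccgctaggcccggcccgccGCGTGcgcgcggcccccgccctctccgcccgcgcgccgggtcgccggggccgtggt
Egln1 had 8 distal regions (percentile 84.8 of genes of like length), and 13 where replicate 1 is taken alone. The strongest by mean signal, at +52.5 kb with 2.09 and 2.93, overlaps an exon of Exoc8, and 4 of the 8 had an Egln1 start as the nearest.

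Egln2 encodes a hydroxylase of the same family that is known from human cells to be induced by estrogen. It had a double promoter, with 8.83 in replicate 1 and 8.70 in replicate 2 at the main start (chr7:27166781-27167140) and 6.14 and 4.59 about the alternative start downstream. The first pair agreed within counting error (8.31 to 9.38 and 8.18 to 9.24).
Egln2 upstream, chr7:27166803-27167002, minus strand, cores in capitals: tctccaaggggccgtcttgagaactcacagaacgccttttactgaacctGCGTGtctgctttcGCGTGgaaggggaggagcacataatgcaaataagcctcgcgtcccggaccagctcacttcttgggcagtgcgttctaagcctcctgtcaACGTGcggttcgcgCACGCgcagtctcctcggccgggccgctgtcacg
These 200 bases held 4 copies of the core, the most of the windows printed here. Shared footprints covered 3 of them, at −133, −44 and −30. None of the 3 distal regions of Egln2 held a core (0 of 3), and all 3 overlapped exons, the one at −13.5 kb an exon of the neighbour Mia. Of the 3, 1 had an Egln2 start as the nearest, and in replicate 1 alone there were 8. The pair at +6.75 kb and −13.5 kb had 4.11 and 4.31 in replicate 1 and 5.14 and 5.14 in replicate 2.

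Egln3 encodes the hydroxylase whose own gene is strongly induced by HIF in many human and mouse cells. Its promoter region, chr12:54203761-54204000, covered the start with a signal of 4.49 in replicate 1 and 5.45 in replicate 2, at percentile 51.7 of open promoters, and neither the promoter region nor the 200 bases before the start held a core.
Egln3 upstream, chr12:54203861-54204060, minus strand: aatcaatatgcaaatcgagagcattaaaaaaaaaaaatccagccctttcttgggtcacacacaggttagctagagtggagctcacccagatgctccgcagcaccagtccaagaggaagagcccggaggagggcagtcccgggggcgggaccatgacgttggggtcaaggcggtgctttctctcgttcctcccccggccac
With 20 kb on each side, the gene was richest of the 9 in distal regions, with 13. Genes of like length had a median of 3, which puts Egln3 at percentile 99.3. It stayed first in the shorter list, with 8, and in replicate 1 alone (16) and replicate 2 alone (13). With a flank of 50 kb it had 13, against 17 for Hif3a and 14 for Epas1. Epas1 also led with a flank of 10 kb (11 against 10) and in the gene body alone (11 against 8). With the stronger 50% of peaks Egln3 had 6, as had Epas1, Hif3a and Egln1. All 13 regions of the main count had Egln3 as the nearest annotated protein-coding start, with 8 intronic and 5 intergenic. Their median signal was 0.669, and 3 stronger intronic ones stood between +11.7 and +16.0 kb.
Egln3 +11.7 kb region, chr12:54192001-54192240, minus strand, core in capitals: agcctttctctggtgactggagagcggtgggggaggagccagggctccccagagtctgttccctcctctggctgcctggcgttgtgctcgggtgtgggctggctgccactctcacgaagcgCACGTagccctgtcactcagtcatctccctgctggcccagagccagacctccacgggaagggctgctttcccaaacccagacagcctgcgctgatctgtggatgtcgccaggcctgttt
Egln3 +12.55 kb region, chr12:54191161-54191460, minus strand, cores in capitals: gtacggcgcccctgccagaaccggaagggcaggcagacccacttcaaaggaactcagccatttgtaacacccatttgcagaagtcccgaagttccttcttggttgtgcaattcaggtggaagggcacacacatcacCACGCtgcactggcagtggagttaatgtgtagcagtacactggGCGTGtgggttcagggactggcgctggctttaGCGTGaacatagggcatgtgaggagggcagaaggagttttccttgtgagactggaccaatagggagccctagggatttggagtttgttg
The first had 3.99 in replicate 1 and 4.12 in replicate 2, above 95.7% of distal regions. The next had 2.08 and 1.88, and the one at +16.0 kb had 1.84 and 1.47. All 3 held a core, in none of them inside a shared footprint. A core in a shared footprint was found in a weak region at +40.8 kb, with signals of 0.480 and 0.650.

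**Figure D3:**
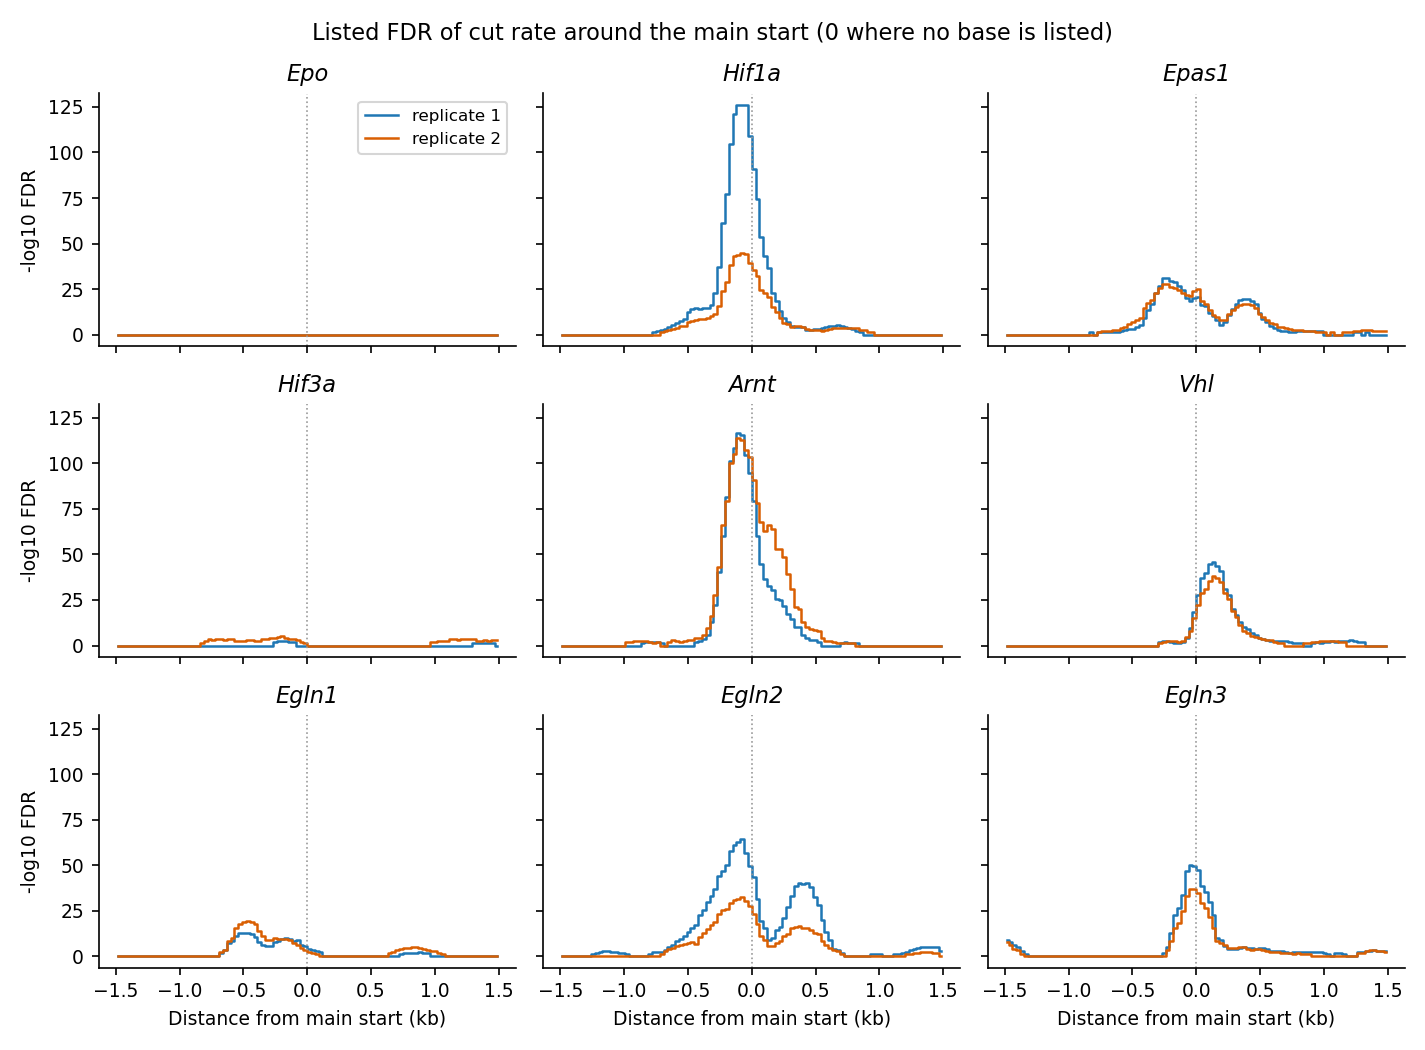
The −log10 of the lowest listed FDR in bins of 30 bases, within 1.5 kb of the main start of each gene, for replicate 1 (blue) and replicate 2 (orange), with 0 where no base was listed. Epo is flat in both libraries, Hif3a reaches 2.40 in replicate 1 and 5.18 in replicate 2, Egln1 peaks before its start, and Egln2 and Epas1 show a pair of summits.

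Set in order, the mean promoter signals were 13.8 for Epo (the Gnb2 promoter), 11.9 for Hif1a, 9.29 for Hif3a, 8.76 for Egln2, 7.67 for Arnt, 5.92 for Epas1, 4.97 for Egln3, 4.30 for Vhl and 3.24 for Egln1. From Epo down to Arnt, each gene's range over the 2 libraries overlapped that of the next, so that order does not hold beyond the spread. From Arnt down no neighbouring ranges overlapped. No test was made, since the 2 libraries form 1 group.

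Over all 9 windows there were 88 shared regions. Of these, 15 were promoter regions of the genes, 59 were distal and the rest were promoters of neighbours. The 15 take in the 2 Epo regions that also lie at the Gnb2 promoter and cannot be assigned to Epo. All 9 genes had at least 1 distal region, against a background of 79.9% of genes, and the median number was 6, against 3 over all genes without regard to length. Among genes of like length, Epo stood at percentile 52.8, Egln2 at 63.2, Vhl at 69.6 and Hif1a at 71.5, between Arnt at 19.4 and the higher values of Egln1, Epas1, Hif3a and Egln3. Taken from a single library, the 59 distal regions become 94 in replicate 1 and 67 in replicate 2. Of the 9, Vhl at 7.68 kb and Egln2 at 8.15 kb are shorter than the median gene of 17.4 kb. The other 7 are longer by the full annotation. For Epo, the length of 50.2 kb and the percentile of 52.8 rest on a body that reaches to the start of Epo-202. Epo-201 spans 2797 bases, below that median length, and the window bounded by Epo-201 and Epo-203 held 2 distal regions. The 59 distal regions of the 9 genes had a median signal of 0.980, against 0.918 over all 77375 distal regions. Of the 59, 39 lay in introns, 10 overlapped exons and 10 were intergenic.

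**Figure D4:**
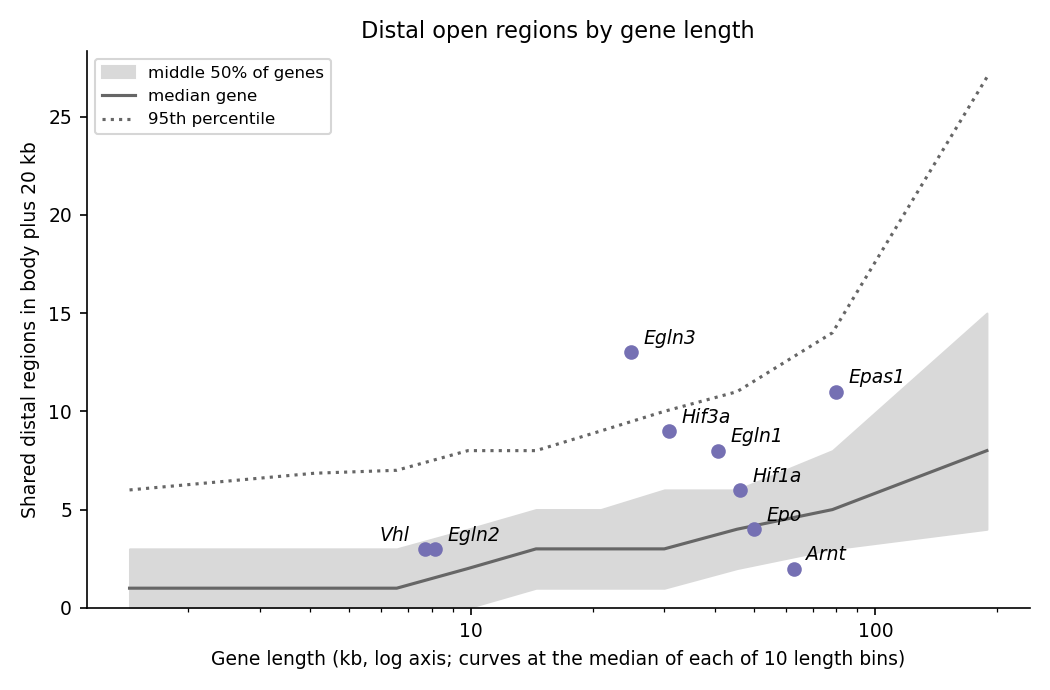
Number of shared distal regions in gene body plus 20 kb against gene length in kb (log axis), with the 9 genes as points and all protein-coding genes as the median, the middle 50% and the 95th percentile in 10 length bins. Egln3 stands above the 95th percentile at 13 regions, and Arnt lies near the lower edge of the band at 2. Epo is placed at 50.2 kb, its full annotated length up to the start of Epo-202.

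Footprints were spread over both kinds of region. Of the 15 promoter regions, 13 held a shared footprint, against 77.4% of all promoter regions, and of the 59 distal regions 39 did, against 63.2% of all distal regions. The counts were 53 shared footprints in promoter regions and 78 in distal regions, 131 in all, while replicate 1 alone listed 224 there and replicate 2 alone 227. Hif3a had the most distal ones, 17, and Arnt the fewest, 2.

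The HIF core was present in 10 of the 15 promoter regions, against 61.2% of all promoter regions, and in 24 of the 59 distal regions, against 29.6% of all distal regions. Inside shared footprints it was present in 7 of 15, against 28.4%, and in 7 of 59, against 6.93%. These shares were not matched for width. The median width was 280 bases in the 15 promoter regions, against 260 over all, and 257 in the 59 distal regions, against 225 over all. A core is 5 bases long and occurs often by composition, so a match is a description of the letters and not a bound site. Of the 7 promoter regions with a core in a footprint, the genes were Hif1a, Epas1, Hif3a (near Hif3a-203), Arnt, Vhl, Egln2 and, at the Gnb2 promoter, Epo. Egln1 and Egln3 had none. The footprint near Hif3a-203 also held a match to the CTCF consensus, and the ACGTG at Vhl overlaps a GC box. At Hif1a and at the Gnb2 promoter, a core in a footprint was part of CACGTG.

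Among the 59 distal regions, 2 differed by more than 2-fold, the Epo downstream region and the Hif3a upstream region, against 14.2% of all distal regions. Among the 15 promoter regions none did (0 of 15), against 2.99% of all promoter regions. Both were higher in replicate 2. Peaks of 1 library alone numbered 40 in replicate 1 and 10 in replicate 2 within the windows. The median signal of both sets was weak, 0.513 in replicate 1 and 0.517 in replicate 2. The strongest, 4.03 in replicate 1, lay beside the Pop7 promoter in the Epo window.

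**Figure D5:**
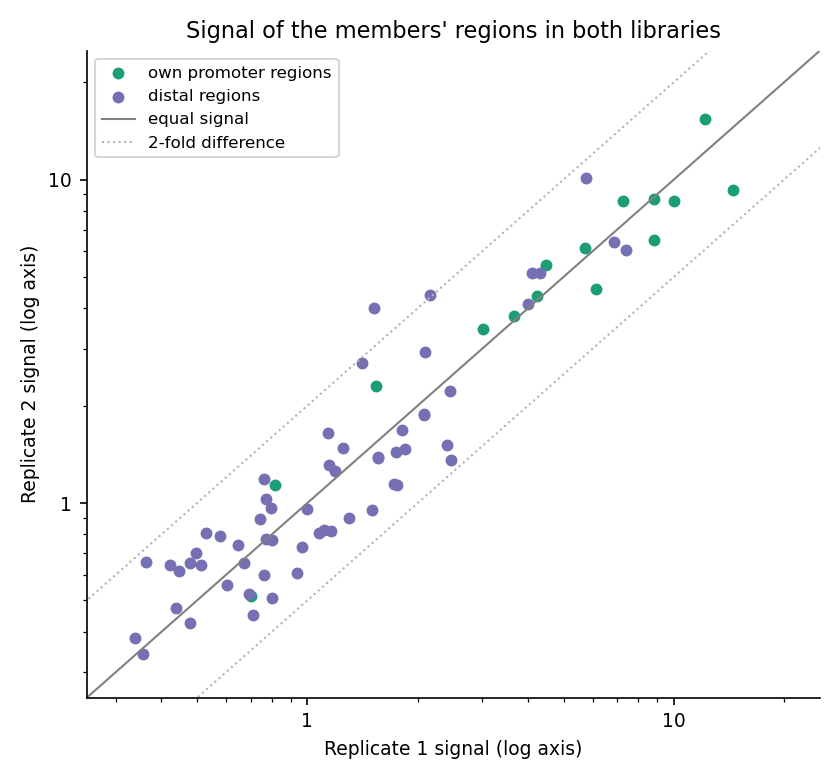
Signal in replicate 2 against replicate 1 for the 15 promoter regions and the 59 distal regions, both on log axes. The solid line is equality and the dotted lines mark a 2-fold difference, which 2 distal regions exceed.

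The wider pathway was open at nearly every gene listed. Of 56 further genes, 55 had an open promoter, against the same background of 63.0%. The exception was Car9, a carbonic anhydrase that is a widely used HIF marker in tumours. All 10 genes of HIF degradation and inhibition were open, led by Os9, at 12.6 ± 1.08, and Rbx1, a ring subunit of the VHL ligase, at 12.1 ± 2.23 (SD, n = 2). All 6 partners and coactivators were open, from Arntl, a beta-type partner known from the clock, at 12.98, and Hsp90ab1, a chaperone, at 10.6, down to Arnt2 at 1.00.

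Among HIF targets, all 13 glycolysis genes were open, led by Pfkfb4, an enzyme that sets fructose 2,6-bisphosphate, at 17.4, and Aldoa, an aldolase, at 14.3. Of 16 other targets, 15 were open, with Bnip3l, a mitophagy receptor, at 20.7 and Ddit4, an inhibitor of mTOR signalling, at 18.8. The 11 genes of the erythropoietin and iron axis were all open but weaker, with a median of 3.35. Tfrc, the transferrin receptor, had 11.5 there, and Fth1, the ferritin heavy chain, had 9.10, while Epor, the erythropoietin receptor, had 1.22 in replicate 1 and 1.23 in replicate 2. Arnt2 and Epor belong to the lists, but the choice to name them here was made after their values were seen.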

How the data were processed

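The authors deposited, for each of the 2 libraries, a longer and a shorter peak list with a signal per peak, a list of FDR values (q-values) for runs of bases up to 0.05, and footprints that all carry a constant p-value or q-value level of 0.01, per the file headers and the values. All are on mm10 and were made from the filtered alignments of each library without pooling, per the file headers. Neither the aligner nor the callers are named there. The depth of the libraries is not stated. The step of the signal was 0.00827 in replicate 1 and 0.00834 in replicate 2.

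Peaks of the longer lists that overlapped by at least 1 base were joined, and footprints likewise. Genes and starts came from GENCODE M21, and sequence from GRCm38.p6. The main start was the one nearest to that of the RefSeq promoter table, which matched 8 of the 9 genes, and Epas1-201 for Epas1. Distances run from the main start to a region's centre, and motif positions to the end with the lower coordinate. Motifs were searched on both strands and count as in a footprint with 5 bases added on each side. For genes of like length, all genes were put in 10 bins, with ties in a percentile at their mean rank. All 9 members were named, with the strongest distal region of each and those with a core in a shared footprint, and in each pathway list the 2 genes with the strongest promoter and any without an open one. Other regions were added after their values were seen. Members and lists were chosen with earlier results of these data known. No test was made, because there is a single group. Functions were checked on simulated data. Python 3.11.15, pandas 2.3.3, numpy 2.4.6, scipy 1.17.1 and pysam 0.24.0 were used.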

Additional observations from a re-analysis of the deposited data

How the results depend on the processing

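No paired analysis was possible because there is only 1 group. The number of open members was 8 or 9 in each alternative run: 8 with a promoter window of 100 bases (Egln1 lost), with only the first start of each gene (Hif1a lost) and without the transcript Epo-202 (Epo lost), a setting chosen after seeing the data. The open pathway genes numbered 52 to 55, and the median promoter signal of the members 6.49 to 8.83. The distal count was 59 and moved to 98 with a flank of 50 kb, 38 in the gene body alone, 36 with the stronger 50% of peaks and 34 in the shorter list. Counted in a single library, it was 67 without replicate 1 and 94 without replicate 2. Of single-gene values, 2 promoter signals and 26 distal counts moved, and 42 and 55 did not. A promoter signal was called moved where it differed from its main value by more than the SD of both libraries. A single library always lies within that SD of their mean. The runs without 1 library therefore could not move a promoter signal, and they say nothing on its stability. The 131 shared footprints compare with 224 to 227 when 1 library is left out, since sharing is then not required. The 34 regions with a core became 19 with ACGTG alone and 14 within shared footprints. The shorter list held 0 of the Arnt distal regions. The effect of depth was not tested. The CAST/EiJ chromosomes may map less well, which was not tested.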
